A study of Mus musculus with 12 samples.

Results

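Macrophages and monocytes are recognised in heart tissue by a set of transcripts that cardiomyocytes do not make, or make little of. The genes described here are 40 such markers of resident, recruited and antigen-presenting macrophages, chosen as a list by symbol and read from the rows of the deposited table that carry the matching mouse Ensembl identifiers, out of 52336 rows. All 40 had a row, and 38 of them had a mean of at least 10 normalized read counts over the 12 libraries and were tested.

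The study asked how antioxidant treatment acts on newborn mouse cardiomyocytes with and without injury. Wild-type pups received N-acetylcysteine (NAC), a cysteine donor and thiol antioxidant, at a high dose in 25 mM HEPES and 140 mM NaCl saline, or saline alone, each day from postnatal day 0 to day 1. On day 2 a branch of the left coronary artery, the anterior descending one, was occluded (MI, for myocardial infarction), or the pups had a sham operation, and they were killed on day 3. The 4 groups were NAC MI, saline MI, NAC sham and saline sham, with 3 libraries each. All animals had injections and surgery, and each library came from ventricles that were pooled, digested with enzymes and passed through a kit that selects neonatal cardiomyocytes. The series text names whole ventricles and the sample labels the left ventricle. Each value is a poly-A RNA read count divided by the size factor of its library, called a normalized count below. Libraries are numbered within a group only to name them.

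The macrophage lineage depends on the transcription factor PU.1, encoded by Spi1, and on the receptor for colony stimulating factor 1, encoded by Csf1r, which carries the survival signal. The heart holds resident macrophages, seeded before birth and marked by genes such as Lyve1, Timd4 and Folr2, and after an infarct it takes up monocytes from the blood that carry Ccr2 and Ly6c2. Both clear dead cells, and in newborn mice macrophages are known to be needed for the heart to regenerate.

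Libraries held 14353842 to 25118341 reads. All 12 cardiomyocyte markers listed (Tnnt2, Myh6, Ttn and others) had reads in all 12 libraries, at a summed value of 338363 to 619841 in 11 libraries and 227529 in NAC sham 2, against 3999 to 41825 for the 40 macrophage and monocyte genes. Those 40 genes made up 0.0226% to 0.282% of a library's reads. Sprr1a, a stress gene that injured heart muscle switches on, had 283 to 681 normalized counts in the 6 MI libraries, against 0 in 5 sham libraries and 2.38 in the other, so the surgery labels of all libraries hold by this gene. Mitochondrial genes took 21.7% to 30.2% of the reads in MI libraries and 7.65% to 27.7% in sham libraries. The sample titles begin with R230 or R235 in MI libraries and with R207, R219 or no such prefix in sham libraries, so that surgery and title prefix cannot be told apart.

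A library in each NAC group stood apart from its own group in the genes described here. NAC MI 2 had the lowest value of the 6 MI libraries for 40 of the 40 genes. NAC sham 2 had the highest value of the 6 sham libraries for 33 of the 40 genes, the exceptions being Mrc1, Cx3cr1, Lyve1, Timd4, Folr2, F13a1 and Ly6c2. Relative to the mean of the saline sham libraries on the log2(value + 1) scale, the median over the 38 tested genes of the set lay at 3.19, 0.04 and 2.90 in NAC MI, at 3.34, 2.87 and 3.53 in saline MI, at 0.56, 3.40 and 0.35 in NAC sham, and at -0.08, 0.37 and -0.18 in saline sham. Thus the second NAC MI library sat at the sham level and the second NAC sham library at the MI level for these genes. NAC sham 2 also had the lowest cardiomyocyte sum and the highest endothelial sum, 88602 against 42165 to 79256 in the other 5 sham libraries, whereas NAC MI 2 had the lowest endothelial sum of all 12, 27109. The part of cell make-up in these results was not tested, and in bulk RNA more macrophages and more RNA per macrophage cannot be told apart. Results below are given with and without this pair of libraries where it matters. Since the pair was picked by the levels of these very genes, values without it are a description.

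**Figure D1:**
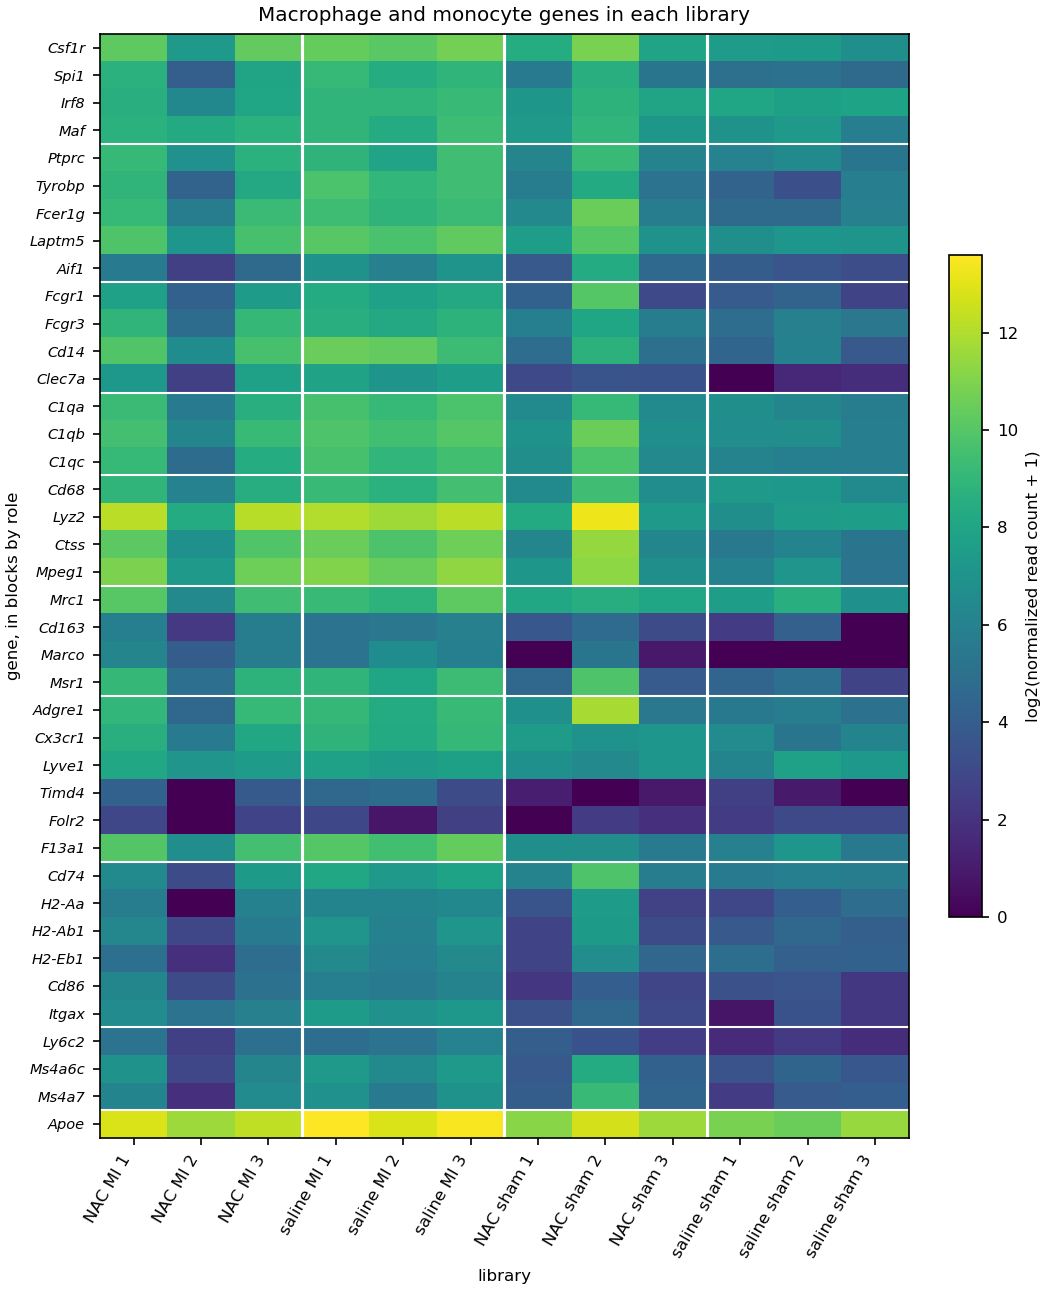
Level of each of the 40 genes (rows, in blocks by role) in each of the 12 libraries (columns, MI groups left of sham groups), coloured by log2(normalized read count + 1). NAC MI 2 is the lowest of the MI libraries for 40 of 40 genes, and NAC sham 2 is the highest of the sham libraries for 33 of 40 genes.

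After saline, macrophage and monocyte genes were higher in infarcted than in sham hearts almost throughout. In saline MI against saline sham, 38 of 38 tested genes had a positive log2 fold change (49.1% of all genes tested), with a median of 3.23. At an adjusted p under 0.05, 6 rose: Itgax, Clec7a, Apoe, F13a1, Cd14 and Marco (limma over 14996 genes; 0.854% of all genes tested were called higher). For 37 of the 38 genes, all but Lyve1, every saline MI library lay above every saline sham library, which held for 10.4% of all genes tested. An unadjusted p under 0.05 was reached by 34 of the 38 genes, against 6.87% of all genes tested in that direction. Over all genes the median log2 fold change was -0.01. When NAC MI 2 and NAC sham 2 were left out, which lowers the spread that the model shares among groups, the same fold changes passed for 36 of the 38 genes, the exceptions being H2-Eb1 and Lyve1, beside 3.45% of all genes tested. That pair was picked by the levels of these genes, so the count without it is a description. With 1 library left out at a time, the count of calls was 1 without saline MI 1, saline MI 3 or saline sham 1, and 2 without saline MI 2. It was 3 without saline sham 3, 4 without saline sham 2, 6 without NAC MI 3 or NAC sham 1, and 8 without NAC MI 1. It was 10 without NAC sham 3, 22 without NAC MI 2 and 24 without NAC sham 2, and Itgax passed in all 12 such fits. The share of all genes called higher moved with these counts, between 0.1% without saline MI 1 and 2.09% without NAC sham 2. The other tools, on the whole reads recovered from the values, gave 5 calls with edgeR (0.6% of all genes called higher) and 23 with DESeq2 (2.69%). The p-values measure the spread between pooled libraries, and nothing in the labels says which pools came from separate litters.

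After NAC, no gene of the set passed the limma test of MI against sham. Of the 38 genes, 29 had a positive log2 fold change (49.8% of all genes tested) and 9 a negative one, with a median of 0.58. Here limma called 0 genes of the set (0.127% of all genes tested were called higher), edgeR 0 (0.18%) and DESeq2 3 (1.18%). The genes that DESeq2 called were Clec7a, F13a1 and Itgax. An unadjusted p under 0.05 was reached by 6, against 5.11% of all genes tested in that direction. Itgax was the only gene of the set with every NAC MI library above every NAC sham library, a separation found in 9.08% of all genes tested. Without NAC MI 2 and NAC sham 2 all 38 fold changes were positive, with a median of 2.64, and 26 passed, beside 2.25% of all genes tested. Because the pair was picked by the levels of these genes, that count is a description and no test of them. Averaged over both treatments, MI against sham gave 38 positive fold changes (49.7% of all genes tested) with a median of 1.87. It gave 9 calls, the 6 named above together with Maf, Cd86 and Ly6c2, beside 2.13% of all genes tested. Itgax was again the only gene of the set with all MI above all sham libraries (1.45% of all genes tested). The averaged count of calls was 26 without NAC MI 2, 25 without NAC sham 2 and 10 without saline sham 3. It was 7 without saline MI 2 and 6 without NAC MI 3 or saline sham 2. It was 5 without NAC MI 1, saline MI 1, saline MI 3, NAC sham 1, NAC sham 3 or saline sham 1. Over the 12 fits without 1 library, between 0.847% and 5.15% of all genes were called higher. Without the pair of libraries the average gave 37 calls, beside 4.59% of all genes tested, with the same limit.

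**Figure D2:**
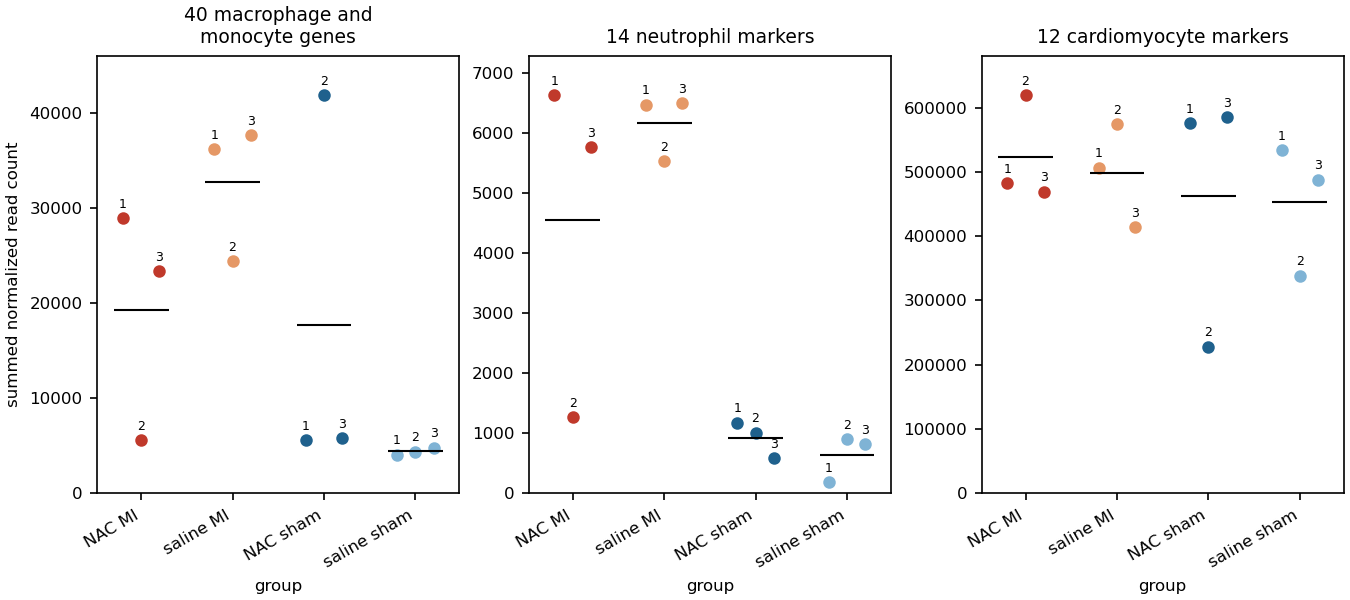
Summed normalized read count of the 40 genes, of 14 neutrophil markers and of 12 cardiomyocyte markers in each library (numbered points), by group along the x axis, with the group mean as a line and each y axis starting at 0. Summed over the 40 genes, NAC MI libraries ranged from 5510 to 28895, saline MI from 24384 to 37634, NAC sham from 5523 to 41825 and saline sham from 3999 to 4739.

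Among the lineage genes, Csf1r, the receptor for colony stimulating factor 1, had 1212, 160.4 and 1275 normalized counts in NAC MI libraries and 1331, 1105 and 1753 in saline MI libraries, against 343, 1869.9 and 249 in NAC sham libraries and 184, 169 and 108 in saline sham libraries. The saline groups did not overlap, and the NAC groups overlapped through their second libraries alone. Its log2 fold change was 3.19 ± 0.77 (SE) after saline, which missed the threshold (limma adjusted p = 0.085), and 0.21 ± 0.77 after NAC. Exons of Csf1r overlap those of Hmgxb3 on the opposite strand, a gene with a mean of 488 normalized counts, and the strand setting of the counting is not given in the sources used here. Maf, a transcription factor of resident macrophages that other cells of the heart also make, had 416, 315 and 412 normalized counts in NAC MI libraries, against 160.2, 496 and 144 in NAC sham libraries. After saline, Maf had 482, 325 and 667 in MI libraries, against 121, 161 and 55.9 in sham libraries. Only NAC sham 2 reached into the MI range. Maf rose when both treatments were averaged, by 1.46 ± 0.33 on the log2 scale (limma adjusted p = 0.0345). Irf8, the factor that directs progenitors to the monocyte fate, had 369.7, 79.6 and 249.9 normalized counts in NAC MI libraries, against 149, 448 and 249 in NAC sham libraries. After saline, Irf8 had 469, 484 and 581 in MI libraries, against 259.5, 214 and 239 in sham libraries. Its saline sham level was the highest of the 3 transcription factors relative to saline MI, and its log2 fold change after saline was 1.10 ± 0.48 (limma adjusted p = 0.406). Spi1 averaged 461 ± 105 in saline MI, against 29.6 ± 4.10 in saline sham (SD, n = 3 each), with a log2 fold change of 3.90 (limma adjusted p = 0.111). In NAC libraries it ranged from 16.4 to 415 after MI, against 37.4 to 368 after sham surgery.

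PU.1 binds purine-rich DNA with the core GAGGAA, read as TTCCTC on the other strand. In the 250 bases before the RefSeq gene start, that core was present on either strand in 15 of the 28 genes of the set with an entry in the RefSeq promoter table (53.6%), against 23.1% of 27025 promoters. The 28 genes were chosen by function, and a match describes the letters in this window only. Of the genes that passed after saline, Clec7a, F13a1, Marco and Apoe had the core, Itgax did not, and Cd14 had no entry. Clec7a, F13a1 and Marco carry the core on the gene's own strand, its first base 96, 66 and 146 bases before the start in that order of genes. Their upstream stretches, from GRCm38.p6 at chr6:129472780-129473029, chr13:37050245-37050494 and chr1:120505025-120505274, all on the minus strand, are printed 5′ to 3′ with the core in capitals to show how its surroundings differ between 3 genes that passed after saline.
Clec7a: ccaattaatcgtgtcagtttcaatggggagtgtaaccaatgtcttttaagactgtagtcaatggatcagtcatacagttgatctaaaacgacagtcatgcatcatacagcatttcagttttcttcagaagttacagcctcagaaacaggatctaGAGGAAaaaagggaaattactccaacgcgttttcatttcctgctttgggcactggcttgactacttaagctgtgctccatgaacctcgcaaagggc
F13a1: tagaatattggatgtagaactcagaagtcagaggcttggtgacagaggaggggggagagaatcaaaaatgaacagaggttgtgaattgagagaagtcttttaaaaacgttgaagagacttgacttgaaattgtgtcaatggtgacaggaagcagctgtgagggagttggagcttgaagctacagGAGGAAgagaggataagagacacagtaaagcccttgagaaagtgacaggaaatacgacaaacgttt
Marco: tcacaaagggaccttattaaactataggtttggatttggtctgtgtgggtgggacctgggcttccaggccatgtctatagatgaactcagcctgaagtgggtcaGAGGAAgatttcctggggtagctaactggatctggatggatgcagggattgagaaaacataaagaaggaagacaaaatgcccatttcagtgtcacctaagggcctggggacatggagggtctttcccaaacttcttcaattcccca

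The leukocyte surface and adaptor genes were high and low in the same libraries as Csf1r. Laptm5, a lysosomal membrane protein of blood cells, had 919.7, 139 and 786 normalized counts in NAC MI libraries and 1089, 844 and 1229 in saline MI libraries, against 196, 1043 and 120.3 in NAC sham libraries and 107, 139.9 and 129.7 in saline sham libraries. Fcer1g, the signalling chain shared by Fc receptors, had 545, 53.1 and 615 normalized counts in NAC MI libraries and 654, 455 and 607 in saline MI libraries, against 83.0, 1503 and 50.8 in NAC sham libraries and 25.4, 24.8 and 60.7 in saline sham libraries. Saline groups were separate for both genes, while NAC sham 2 exceeded every NAC MI library. All 5 genes of this group had an unadjusted p under 0.05 after saline, with log2 fold changes of 2.79 for Ptprc, the pan-leukocyte phosphatase CD45, 3.02 for Aif1, an actin-bundling protein, 3.05 for Laptm5, 4.03 for Fcer1g and 4.92 for Tyrobp, the adaptor DAP12; their limma adjusted p-values ran from 0.0523 to 0.234. Per kb of exon in saline MI libraries, Tyrobp had 1028 normalized counts and Fcer1g 654, against 25.1 for Ptprc.

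The receptors for antibody, lipopolysaccharide and fungal glucan included Clec7a, which had the largest fitted log2 fold change among tested genes of the set after saline, though not after NAC or averaged over treatments, where Marco had a larger one. Clec7a (chr6:129461591-129472779), which encodes the glucan receptor Dectin-1, had 150.2, 5.05 and 219.4 normalized counts in NAC MI libraries, against 7.02, 10.5 and 9.80 in NAC sham libraries. After saline, Clec7a had 228, 133 and 195 in MI libraries, against 0, 1.98 and 2.38 in sham libraries. It was low in all 6 sham libraries, including NAC sham 2, and of the MI libraries NAC MI 2 alone lay at the sham level. It rose after saline by 6.39 ± 1.05 on the log2 scale (limma adjusted p = 0.0126) and by 4.47 ± 0.74 averaged over treatments (limma adjusted p = 0.00708). Cd14, the lipopolysaccharide co-receptor, had 960.0, 96.0 and 799 normalized counts in NAC MI libraries, against 28.1, 433 and 32.1 in NAC sham libraries. After saline, Cd14 had 1420.1, 1279.9 and 648 in MI libraries, against 20.3, 62.5 and 13.1 in sham libraries. All MI libraries but NAC MI 2 lay above all sham libraries. Cd14 rose after saline by 5.31 ± 1.02 (limma adjusted p = 0.0315), a call that edgeR did not make, and by 3.90 ± 0.72 averaged over treatments (limma adjusted p = 0.0133). Fcgr3, a low-affinity receptor for IgG, had 481, 26.5 and 536 normalized counts in NAC MI libraries, against 57.3, 255 and 50.8 in NAC sham libraries. After saline, Fcgr3 had 385, 299 and 435 in MI libraries, against 27.5, 60.5 and 41.7 in sham libraries. NAC sham 2 lay below the 5 MI libraries other than NAC MI 2 here. Fcgr1, the high-affinity IgG receptor, did the opposite: it had 1037 normalized counts in NAC sham 2, against at most 332 in any MI library and at most 18.9 in the other sham libraries. Neither IgG receptor passed the test, with log2 fold changes after saline of 3.13 ± 0.92 for Fcgr3 and 4.46 ± 1.40 for Fcgr1.

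The 3 C1q chains, which together form the recognition part of complement C1 and come mainly from tissue macrophages, had log2 fold changes close to each other after saline. C1qb had 735, 74.5 and 578 normalized counts in NAC MI libraries and 940.0, 709 and 1018 in saline MI libraries, against 127, 1477 and 109 in NAC sham libraries and 101, 106 and 54.7 in saline sham libraries. C1qa had 628, 49.3 and 387 in NAC MI libraries and 792, 560.1 and 863 in saline MI libraries, against 90.1, 543 and 88.2 in NAC sham libraries and 108, 74.4 and 53.6 in saline sham libraries. In both, the saline groups were separate and the second NAC libraries crossed over, and in C1qb NAC sham 2 was the highest of all 12. Within NAC sham 2 the chains stood further apart, at 543 for C1qa, 1477 for C1qb and 845 for C1qc. After saline the log2 fold changes were 3.25 ± 0.82 for C1qa, 3.38 ± 0.92 for C1qb and 3.44 ± 0.97 for C1qc, with limma adjusted p-values of 0.106 to 0.147. After NAC they were 0.49, 0.21 and -0.18.

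Lysosomal and killing genes were high in every MI library but NAC MI 2. Lyz2, the lysozyme of macrophages and granulocytes, had 4744, 325 and 4446 normalized counts in NAC MI libraries and 4182, 3265 and 4672 in saline MI libraries, against 323, 9826 and 159 in NAC sham libraries and 109, 185 and 195 in saline sham libraries. Mpeg1, a pore-forming protein that kills engulfed bacteria, had 1954, 157 and 1556 in NAC MI libraries and 2102, 1404 and 2552 in saline MI libraries, against 145, 2498 and 107 in NAC sham libraries and 61.6, 134 and 35.7 in saline sham libraries. For Lyz2, NAC sham 2 held more than any MI library, and for Mpeg1 it lay within the saline MI range. The log2 fold changes after saline were 4.65 ± 1.26 for Lyz2, 4.65 ± 1.16 for Ctss, the protease cathepsin S, and 4.86 ± 1.09 for Mpeg1, with limma adjusted p-values of 0.128, 0.0985 and 0.0601. Cd68, a lysosomal membrane protein found in other phagocytes and at lower levels in other cells, had the smallest log2 fold change of this group, 2.11 ± 0.78 (limma adjusted p = 0.304). Lyz1, the near-identical gut lysozyme, averaged 1.79 normalized counts, so that few reads of Lyz2 stand to be exchanged with it.

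The scavenger and mannose receptors had the widest range of log2 fold changes after saline among the role groups, 1.76 to 5.88. Marco (chr1:120474538-120505024), a scavenger receptor for bacteria and particles, had 72.3, 15.2 and 53.1 normalized counts in NAC MI libraries, against 0, 37.7 and 0.891 in NAC sham libraries. After saline, Marco had 34.8, 98.8 and 56.5 in MI libraries, against 0, 0 and 0 in sham libraries. It had no reads in any saline sham library and 222 reads in the saline MI libraries, a level at least 73.2-fold higher when a floor of 3 reads over the group is set against it. Marco rose after saline by a fitted 5.88 ± 1.14 on the log2 scale (limma adjusted p = 0.0323), a call that edgeR did not make, and by 4.57 ± 0.80 averaged over treatments (limma adjusted p = 0.00993). Mrc1, the mannose receptor CD206 of resident macrophages, had 1092, 84.6 and 695 normalized counts in NAC MI libraries, against 285, 356 and 259 in NAC sham libraries. After saline, Mrc1 had 587, 449 and 1186 in MI libraries, against 192, 370.1 and 112 in sham libraries. Saline sham 2 was here the highest sham library, just above NAC sham 2, and the log2 fold change of Mrc1 after saline was 1.76 ± 0.74 (limma adjusted p = 0.389). Msr1, the class A scavenger receptor for modified lipoprotein, had 523, 30.3 and 435 normalized counts in NAC MI libraries, against 23.4, 924 and 14.3 in NAC sham libraries. After saline, Msr1 had 480.1, 259 and 644 in MI libraries, against 20.3, 29.8 and 5.95 in sham libraries. NAC sham 2 was here the highest of all libraries, and the log2 fold change after saline was 4.70 ± 1.35 (limma adjusted p = 0.154). Cd163, the haemoglobin scavenger receptor, was low, at 3.79 to 60.4 normalized counts in MI libraries against 0 to 26.3 in sham libraries.

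Markers of resident macrophages differed among themselves. F13a1 (chr13:36867178-37050244), which encodes the A subunit of clotting factor XIII and is made by monocytes and macrophages, had 1009, 99.8 and 749.7 normalized counts in NAC MI libraries, against 109, 105 and 49.9 in NAC sham libraries. After saline, F13a1 had 1019.6, 726 and 1358 in MI libraries, against 58.7, 141 and 44.0 in sham libraries. All 6 sham libraries were low, NAC sham 2 among them, and NAC MI 2 was again the exception among MI libraries. F13a1 rose after saline by 3.79 ± 0.71 (limma adjusted p = 0.0274) and by 3.06 ± 0.50 averaged over treatments (limma adjusted p = 0.00653). Adgre1, which encodes the F4/80 antigen, had 516, 22.7 and 553 normalized counts in NAC MI libraries, against 111, 3624 and 42.8 in NAC sham libraries. After saline, Adgre1 had 527, 328 and 585 in MI libraries, against 44.9, 53.6 and 34.5 in sham libraries. NAC sham 2 held several times the level of any MI library. The log2 fold change of Adgre1 was 3.39 ± 1.38 after saline (limma adjusted p = 0.367) and -0.46 ± 1.38 after NAC. Cx3cr1, the fractalkine receptor, averaged 231 ± 164 in NAC MI and 439 ± 115 in saline MI, against 148 ± 28.7 in NAC sham and 68.0 ± 28.2 in saline sham (SD, n = 3 each), with a log2 fold change after saline of 2.73 ± 0.60 (limma adjusted p = 0.0544). Lyve1, a hyaluronan receptor of resident macrophages and of lymphatic endothelium, overlapped between surgeries under both treatments: it averaged 198 ± 74.6 in NAC MI and 201 ± 20.2 in saline MI, against 114 ± 28.8 in NAC sham and 146 ± 74.8 in saline sham (SD, n = 3 each), with log2 fold changes of 0.76 ± 0.39 after NAC and 0.61 ± 0.39 after saline (limma adjusted p = 0.528 and 0.597). The lymphatic endothelial markers listed summed to 2216 to 2943 normalized counts in NAC MI and 1980 to 2365 in saline MI, against 2906 to 3101 in NAC sham and 2198 to 3037 in saline sham. Timd4, a receptor for phosphatidylserine on dying cells, had 17.8, 0 and 13.6 normalized counts in NAC MI libraries and 22.4, 27.5 and 7.80 in saline MI libraries, against 1.17, 0 and 0.891 in NAC sham libraries and 5.07, 0.992 and 0 in saline sham libraries; over all 6 MI against 6 sham libraries its mean log2 difference was 2.50 (exact two-sided permutation p = 0.0216, 0.13 after Benjamini-Hochberg adjustment over 6 such tests). Folr2, the folate receptor beta, stayed between 0 and 7.14 normalized counts in all libraries, with a mean log2 difference of -0.13 (exact two-sided permutation p = 0.896). With 3 against 3 libraries such a test cannot go below 0.1.

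Among antigen presentation genes, Itgax and Cd86 rose and the class II chains did not pass. Itgax (chr7:128129547-128150657), the integrin CD11c of dendritic cells and activated macrophages, had 93.8, 35.4 and 58.8 normalized counts in NAC MI libraries, against 9.36, 22.8 and 7.13 in NAC sham libraries. After saline, Itgax had 184, 116 and 154 in MI libraries, against 0.725, 9.92 and 3.57 in sham libraries. Every MI library lay above every sham library, NAC MI 2 and NAC sham 2 included. Itgax rose after saline by 5.08 ± 0.66 (limma adjusted p = 0.00414), by 3.66 ± 0.47 averaged over treatments (limma adjusted p = 0.00129), and had a difference of 2.23 ± 0.66 after NAC that did not pass (limma adjusted p = 0.258). Cd86, the co-stimulatory ligand of CD28, had 75.1, 7.58 and 32.8 normalized counts in NAC MI libraries, against 3.51, 15.8 and 6.24 in NAC sham libraries. After saline, Cd86 had 57.2, 47.5 and 66.3 in MI libraries, against 9.42, 10.9 and 3.57 in sham libraries. NAC MI 2 was the only MI library within the sham range, and Cd86 rose averaged over treatments by 2.29 ± 0.54 (limma adjusted p = 0.0426). Cd74, the invariant chain that escorts class II molecules, had 89.2, 7.58 and 168 normalized counts in NAC MI libraries and 285, 159 and 239.7 in saline MI libraries, against 66.7, 917 and 54.3 in NAC sham libraries and 46.4, 57.6 and 52.4 in saline sham libraries. H2-Ab1, the beta chain of the class II molecule I-A, had 77.0, 6.32 and 46.4 in NAC MI libraries and 138, 60.9 and 134 in saline MI libraries, against 5.85, 172 and 8.02 in NAC sham libraries and 13.05, 22.8 and 16.7 in saline sham libraries. For both genes the saline groups were separate and NAC sham 2 was the highest library of all 12. Log2 fold changes after saline were 2.07 ± 1.06 for Cd74, 2.25 ± 1.43 for H2-Aa, the I-A alpha chain, 2.54 ± 1.08 for H2-Ab1 and 1.79 ± 0.93 for H2-Eb1, the I-E beta chain, with limma adjusted p-values of 0.397 to 0.591. H2-Eb2, a close relative of H2-Eb1, averaged 0.175 normalized counts.

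Class II genes share an upstream element whose Y box, GATTGG, is bound by the factor NF-Y; its reverse is CCAATC. On either strand the box occurred in the 250 bases before the start of 5 of the 28 genes with an entry (17.9%: Cd163, Cd68, H2-Aa, H2-Eb1 and Irf8), against 15.0% of 27025 promoters. The stretches of H2-Aa (GRCm38.p6 chr17:34287824-34288073, minus strand) and H2-Eb1 (chr17:34305617-34305866, plus strand), from RefSeq, are printed 5′ to 3′ with the box in capitals, because both chains carry it near the start. In H2-Aa its first base lies 49 bases before the start; in H2-Eb1 the box begins 60 bases before the start and a reverse copy 35 bases before it.
H2-Aa: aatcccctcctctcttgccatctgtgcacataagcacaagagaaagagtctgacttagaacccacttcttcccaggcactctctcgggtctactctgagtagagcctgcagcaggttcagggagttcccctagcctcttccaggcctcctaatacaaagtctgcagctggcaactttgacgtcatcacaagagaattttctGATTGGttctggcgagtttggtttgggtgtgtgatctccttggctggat
H2-Eb1: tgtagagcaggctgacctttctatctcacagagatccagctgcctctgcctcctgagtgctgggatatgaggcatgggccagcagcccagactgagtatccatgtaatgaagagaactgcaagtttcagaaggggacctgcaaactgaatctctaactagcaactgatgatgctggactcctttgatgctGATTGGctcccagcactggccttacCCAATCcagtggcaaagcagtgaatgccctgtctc

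Of the monocyte genes, Ly6c2, the antigen of inflammatory monocytes, had 35.7, 5.05 and 30.5 normalized counts in NAC MI libraries, against 16.4, 9.63 and 4.45 in NAC sham libraries. After saline, Ly6c2 had 29.2, 35.7 and 64.3 in MI libraries, against 2.17, 3.97 and 2.38 in sham libraries. NAC MI 2 alone of the MI libraries lay in the sham range, and the gene rose averaged over treatments by 2.20 ± 0.53 (limma adjusted p = 0.0441). Its near-identical neighbour Ly6c1, an endothelial antigen, averaged 1455 normalized counts against 19.9 for Ly6c2, so a small exchange of reads between them would change Ly6c2, and its values are uncertain. Ms4a7, a membrane protein of macrophages, had 70.4, 2.53 and 93.8 normalized counts in NAC MI libraries and 119, 46.8 and 124 in saline MI libraries, against 15.2, 603 and 20.5 in NAC sham libraries and 4.35, 13.9 and 15.5 in saline sham libraries. Ms4a6c, a relative found in monocytes, had 120.1, 6.32 and 71.2 in NAC MI libraries and 160.4, 91.4 and 161 in saline MI libraries, against 12.9, 327 and 17.8 in NAC sham libraries and 10.1, 19.8 and 11.9 in saline sham libraries. NAC sham 2 was far above the rest for both, and their log2 fold changes after saline, 3.03 ± 1.35 and 3.22 ± 1.12, did not pass (limma adjusted p = 0.418 and 0.262). Reads of Ms4a6c can be shared with Ms4a6b, which averaged 89.9 normalized counts.

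Apoe, the lipid carrier of macrophages and also of other cells, was the most abundant gene of the set, with 7294, 3140.2 and 5069 normalized counts in NAC MI libraries, against 2363, 6824 and 3162 in NAC sham libraries. After saline, Apoe had 12430.5, 7245 and 11356 in MI libraries, against 1839, 1504 and 2857 in sham libraries. Saline groups were separate, and NAC MI 2 lay just under NAC sham 3. Apoe (chr7:19696109-19699188) rose after saline by 2.34 ± 0.40 (limma adjusted p = 0.0174) and by 1.37 ± 0.29 averaged over treatments (limma adjusted p = 0.0236). Per kb of exon in saline MI it had 4838 normalized counts, ahead of Lyz2, while Folr2 with 2.66, Cd163 with 8.30 and Timd4 with 8.85 were the lowest.

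**Figure D3:**
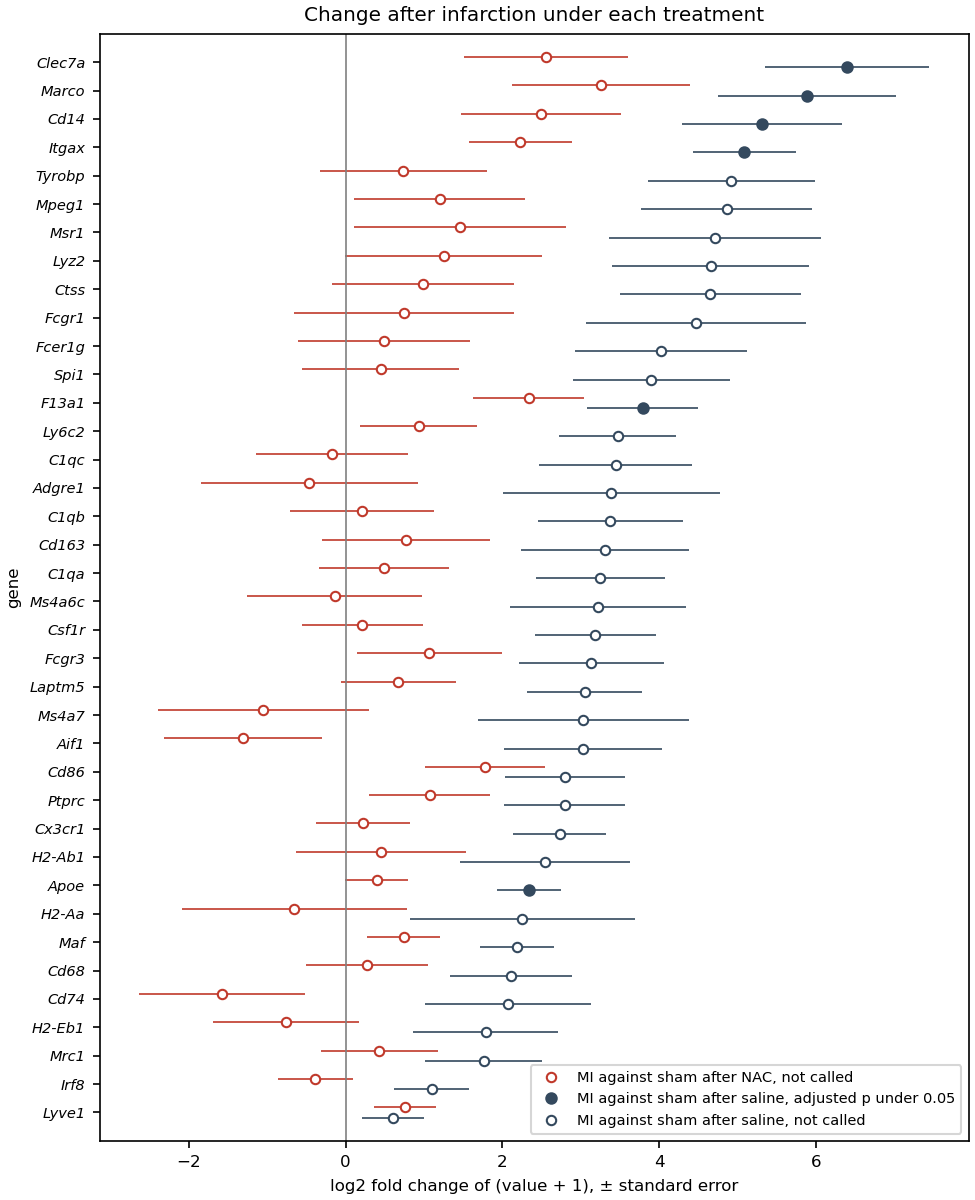
Log2 fold change of (value + 1) for MI against sham for each of the 38 tested genes (rows), after NAC and after saline, with standard errors; filled points had an adjusted p under 0.05. The saline points all lie above 0, and the 6 filled ones are Itgax, Clec7a, Apoe, F13a1, Cd14 and Marco; no NAC point is filled.

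Whether NAC changed these genes was asked within each surgery. In NAC MI against saline MI, 38 of 38 genes had a negative log2 fold change (51.9% of all genes tested), with a median of -1.33. The tools limma, edgeR and DESeq2 each called 0 (limma and edgeR called 0.0% of all genes tested lower, DESeq2 3 of 14951). Of 7 red blood cell markers, 7 also had a negative fold change, with a median of -0.98 and 0 called in limma. An unadjusted p under 0.05 was reached by 4 of the 7 (5.35% of all genes tested in that direction). These markers took 1.47% to 2.88% of the reads in NAC MI libraries, against 4.32% to 7.21% in saline MI libraries. Their part in the result was not tested. In limma 5 of the macrophage and monocyte genes, Irf8, Aif1, Cx3cr1, H2-Eb1 and Apoe, had an unadjusted p under 0.05, against 5.35% of all genes tested in that direction. In 6 genes, Irf8, Tyrobp, Aif1, H2-Aa, H2-Eb1 and Itgax, every NAC MI library lay below every saline MI library (11.5% of all genes tested). Without NAC MI 2 the median was -0.28 and 11 of the 38 genes had a positive fold change. Among libraries titled R230 the single NAC MI library minus the mean of 2 saline MI libraries had a median of -0.27, with 12 genes higher and 26 lower. Among those titled R235 the mean of 2 NAC MI libraries minus the single saline MI library had a median of -2.10, with 38 lower, and without NAC MI 2 a median of -0.42, with 6 higher and 32 lower.

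In NAC sham against saline sham, 36 of 38 genes had a positive log2 fold change (48.2% of all genes tested), with a median of 1.51. Again limma, edgeR and DESeq2 each called 0 (limma and edgeR called 0.0% of all genes tested higher, DESeq2 0.268%). Here the 7 red blood cell markers had negative fold changes, with 0 called in limma. An unadjusted p under 0.05 was reached by 4 of the 7, against 354 of 14996 genes tested in that direction. These markers took 1.10% to 2.78% of the reads in NAC sham, against 3.82% to 6.66% in saline sham. Their part was not tested. In limma 5 genes of the set, Csf1r, Maf, Fcer1g, Itgax and Apoe, had an unadjusted p under 0.05, against 3.53% of all genes tested in that direction. In 8 genes, Csf1r, Spi1, Clec7a, C1qb, C1qc, Ctss, Cx3cr1 and Ly6c2, every NAC sham library lay above every saline sham library (5.35% of all genes tested). Without NAC sham 2 the median was 0.46 and 30 of the 38 genes were higher. Only the prefix R207 had both treatments among sham libraries, with NAC sham 2 as its only NAC library, so no value within a prefix is free of that library; there 37 genes were higher and 1 lower.

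The interaction, the MI effect after NAC minus the MI effect after saline, was negative for 37 of 38 genes (49.9% of all genes tested), the exception being Lyve1, with a median of -2.83 on the log2 scale. No gene of the set passed in limma (0.0% of all genes tested), edgeR (0.0%) or DESeq2 (1 of 14951 genes called lower). In limma 19 had an unadjusted p under 0.05 with a negative sign, against 1.44% of all genes tested. The smallest of those p-values belonged to Apoe, at -1.94 ± 0.57. Without NAC MI 2 and NAC sham 2 the median was -0.71, with 6 genes positive. These comparisons share libraries, so their values are given side by side only.

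Each gene was divided by Csf1r in the same library, and for many genes this ratio differed between NAC sham 2 and infarcted hearts. Such ratios describe macrophage make-up only if Csf1r per macrophage is constant and other cells add little to either count, which was not tested. Some genes of the set are also made by neutrophils or other cells. Neutrophil markers summed to 5531 to 6629 normalized counts in MI libraries once NAC MI 2 is set aside, but to 1001 in NAC sham 2. Relative to the range of the 5 MI libraries other than NAC MI 2, NAC sham 2 was above it for 12 of the 40 genes, below it for 18 and within it for 10. Csf1r itself is 1 of the 10 by construction. Adgre1 was 1.94 times Csf1r in NAC sham 2, against 0.297 to 0.434 in the 5 MI libraries. Ms4a7 was 0.323 times Csf1r against 0.042 to 0.089, Fcgr1 0.555 against 0.138 to 0.249, and Cd74 0.490 against 0.074 to 0.214; Aif1, Ms4a6c, Fcer1g, H2-Aa, Ctss, Lyz2, Msr1 and C1qb were also above. On the other side, F13a1 was 0.056 times Csf1r in NAC sham 2, against 0.588 to 0.833 in the 5 MI libraries, and Clec7a lay 19.8-fold under the lowest of them. Ly6c2 lay 4.25-fold under, Itgax 3.79-fold, Cx3cr1 3.28-fold and Cd86 3.05-fold. Then Mrc1, Lyve1, Cd14, Cd163, Marco, Fcgr3, Tyrobp, Apoe, C1qa, Laptm5, Maf and Timd4 were below by smaller factors or, for Timd4, at 0. The 4 genes farthest above the range of the MI libraries thus encode F4/80, an MS4A protein, the high-affinity IgG receptor and the invariant chain. In the other 5 sham libraries the ratio was 0 to 0.039 for Clec7a, 0.004 to 0.059 for Itgax and 0.2 to 0.835 for F13a1, so that NAC sham 2 lay within their range for Clec7a and Itgax and below it for F13a1. Of the 12 genes above the MI range, 11 were also above all 5 other sham libraries. Of the 18 below it, 9 were also below all 5 other sham libraries, 8 lay within their range and Marco lay above it. In NAC sham 2 all 9 genes that rose with MI averaged over treatments were below the MI range. That count is not independent of the fit, since a high value in NAC sham 2 lowers a gene's fold change. A single library carries this pattern, and no test was made.

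**Figure D4:**
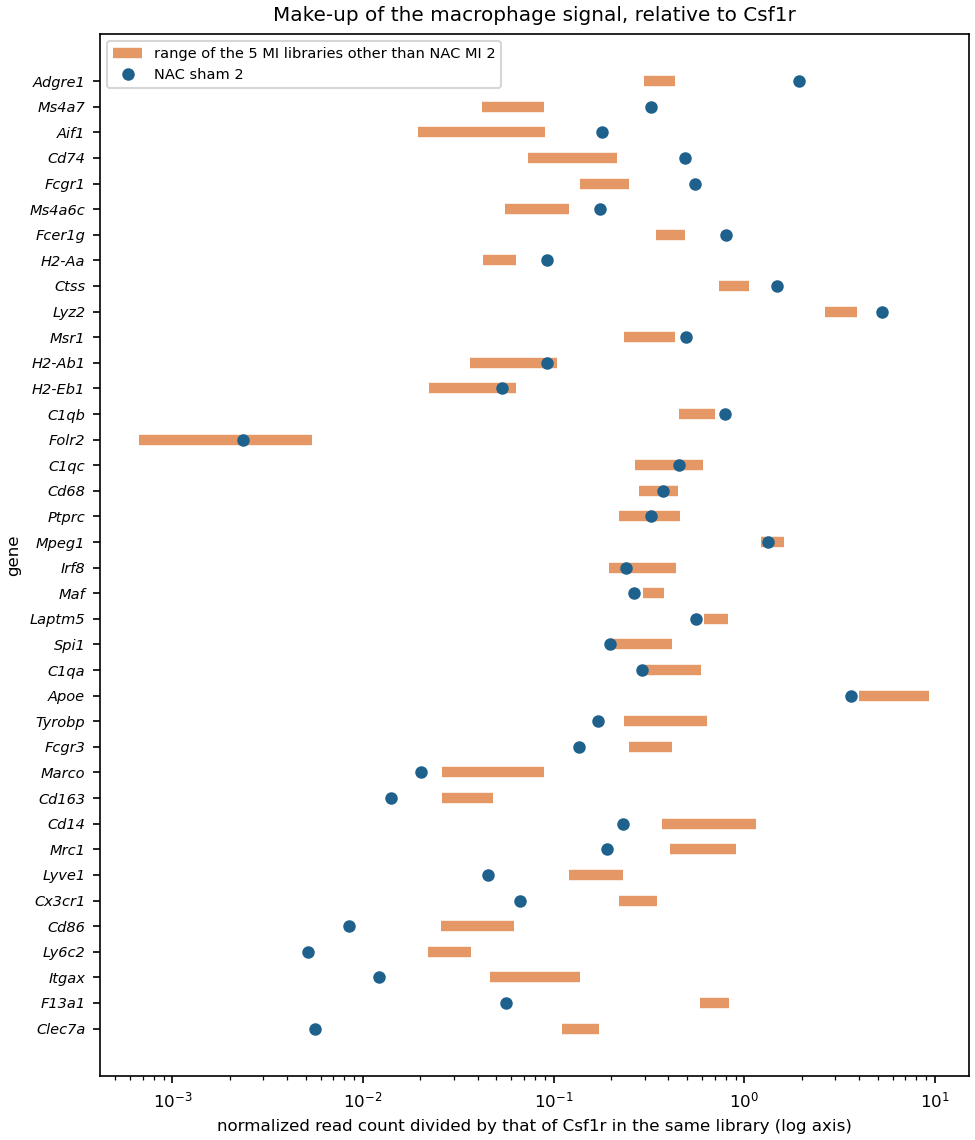
Normalized read count of each gene divided by that of Csf1r in the same library, on a log axis: bars span the 5 MI libraries other than NAC MI 2, and points show NAC sham 2. Adgre1, Ms4a7, Fcgr1 and Cd74 stand to the right of their bars, and Clec7a and F13a1 far to the left. Csf1r itself and Timd4, at 0 in NAC sham 2, are not drawn.

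Genes of the wider pathways, from lists drawn by function, were counted in the same fit. Of 10 tested ligands, receptor partners and myeloid factors of the CSF1 and CSF2 system, 4 rose after saline and 7 averaged over treatments, beside 0.854% and 2.13% of all genes tested in that order, and none fell. Runx1, a factor of blood cell development, rose after saline by 2.39 ± 0.38 on the log2 scale (limma adjusted p = 0.0118), Csf2ra, the alpha chain of the GM-CSF receptor, by 1.63 ± 0.31 (0.0282), and Cebpa, a factor of the granulocyte and monocyte lineage, by 2.34 ± 0.47 (0.0357). Cebpb, its inflammatory relative, rose by 2.35 ± 0.48 (limma adjusted p = 0.0399). Csf1, the ligand of Csf1r, had 933, 1172 and 733 normalized counts in NAC MI libraries, against 367, 487 and 571 in NAC sham libraries. After saline, Csf1 had 1289.9, 885 and 977 in MI libraries, against 553, 611 and 390.3 in sham libraries. Every MI library lay above every sham library, NAC MI 2 was not low, and Csf1 rose averaged over treatments by 1.01 ± 0.17 (limma adjusted p = 0.00906). Averaged over treatments Tfec, a factor of myeloid cells, rose by 2.60 ± 0.61 (limma adjusted p = 0.041) and Csf2rb, the shared beta chain, by 2.25 ± 0.53 (0.0413).

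Of 13 tested genes of monocyte recruitment, 3 rose after saline (0.854% of all genes tested) and 4 averaged over treatments (2.13%). Ccr2, the receptor that draws monocytes out of the marrow, had 259, 20.2 and 220.5 normalized counts in NAC MI libraries, against 8.19, 7.88 and 8.02 in NAC sham libraries. After saline, Ccr2 had 354, 168 and 393 in MI libraries, against 5.80, 8.93 and 3.57 in sham libraries. All MI libraries were above all sham libraries, and NAC sham 2 did not differ from the other sham libraries. Ccr2 rose after saline by 5.41 ± 0.77 (limma adjusted p = 0.00692) and by 4.49 ± 0.54 averaged over treatments (0.000882). Itgb2, the beta chain of leukocyte integrins, rose after saline by 4.63 ± 0.97 (limma adjusted p = 0.0465) and Ccr1, a chemokine receptor, by 4.01 ± 0.85 (0.0472). Vcam1, the endothelial ligand for monocyte integrins, rose averaged over treatments by 0.75 ± 0.16 (limma adjusted p = 0.0284), with NAC MI 2 its highest library at 1179 normalized counts.

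Beside the same 0.854% of all genes tested, 1 of 13 tested receptors and kinases that signal through the adaptors rose after saline, Trem2, a lipid-sensing receptor that needs Tyrobp, by 4.15 ± 0.76 (limma adjusted p = 0.0253). Averaged over treatments Clec4n, which encodes Dectin-2, rose by 3.11 ± 0.69 (limma adjusted p = 0.0316) and Plcg2, a phospholipase of immune receptors, by 0.82 ± 0.16 (0.0153). Of 9 tested complement genes beyond C1q, 2 rose after saline, beside 0.854% of all genes tested: C5ar1, the receptor for the C5a fragment, by 4.67 ± 0.96 (limma adjusted p = 0.0417), and C4b, which C1 cleaves, by 2.18 ± 0.41 (0.0297). C4b did not follow the macrophage genes library by library, since NAC MI 2 was its highest library at 215 normalized counts. None of 10 tested genes of class II loading and control and none of 13 tested genes for clearing dead cells passed in any comparison of MI against sham (limma, as for the counts above); of the first list the lowest p-values after saline belonged to Cd80, a co-stimulatory ligand, at 1.40 ± 0.46, and H2-DMa, part of the peptide exchange factor, at 1.31 ± 0.57, and of the second to Axl, a receptor that binds dying cells, at 0.71 ± 0.25, and Cd36, a fatty acid and scavenger receptor also found in heart muscle and vessels, at -0.97 ± 0.36. After NAC none of the genes on these lists passed.

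Markers of other cells were counted in the same fit. Neutrophil markers also moved with MI: 13 of 13 tested had positive fold changes after saline (49.1% of all genes tested) and 7 rose (0.854%). After NAC, 11 of 13 were positive (49.8% of all genes tested) and 1, Il1r2, a decoy receptor for interleukin 1, rose (limma adjusted p = 0.0249; 0.127% of all genes tested), where no macrophage or monocyte gene of the set passed in limma. The 14 listed summed to 1258 to 6629 normalized counts in NAC MI and 5531 to 6497 in saline MI, against 574 to 1168 in NAC sham and 171 to 892 in saline sham. Between 10 and 14 of the 14 had reads in each library, with S100a8, S100a9 and Mmp9 detected in all 12 and Ly6g at 0 in 6 of them. NAC sham 2, high for macrophage genes, had a neutrophil sum of 1001, within the sham range, and NAC MI 2 had the lowest MI sum, 1258. Lyz2, Itgax, Cd14, Fcer1g, Tyrobp, Laptm5 and Ptprc, among others of the set, are also made by neutrophils. The neutrophils' part in the values of the set, Clec7a and Fcgr3 included, was not tested. Dendritic cell markers summed to 325 to 633 normalized counts in MI libraries against 482 to 1035 in sham libraries, and T, B and NK cell markers to 34.1 to 343 against 96.2 to 249. Only 4 of 8 dendritic cell markers and 6 of 14 T, B and NK cell markers were tested, and none passed in MI against sham. Fibroblast markers summed to 148179 to 232771 normalized counts in NAC MI and 168253 to 256168 in saline MI, against 105276 to 161680 in NAC sham and 105222 to 151519 in saline sham. Averaged over treatments 10 of 10 were positive (49.7% of all genes tested) and 0 were called in limma. An unadjusted p under 0.05 was reached by 6, against 1560 of 14996 genes tested in that direction. Endothelial markers ran the other way, at 27109 to 54200 in NAC MI and 45166 to 54113 in saline MI, against 42165 to 88602 in NAC sham and 71389 to 79256 in saline sham. Averaged over treatments 9 of 10 were negative, where 49.7% of all genes tested were positive, and 0 were called in limma. An unadjusted p under 0.05 was reached by 7, against 1474 of 14996 genes tested in that direction. The saline groups did not overlap for either sum, and the part of these cells in the macrophage and monocyte values was not tested. Of 8 tested mural cell markers, 1, Cnn1, rose after saline (limma adjusted p = 0.00747), beside 0.854% of all genes tested. Averaged over treatments Cnn1 also rose, Notch3 and Rgs5 of that list fell, and the mast cell marker Kit fell. Pdpn and Reln of the lymphatic endothelial list also passed there, in opposite directions. In that comparison limma called 319 of 14996 genes tested higher and 92 lower.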

How the data were processed

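RNA sequencing of 12 libraries had given 1 deposited table of normalized values (signal): gene read counts that the authors had scaled by 1 size factor for each library. Undoing that scaling, 100% of values came within 0.01 of a whole number in every library, so reads could be recovered; the factors equalled recomputed median-of-ratios factors in 12 libraries, within 0.001. Per the submitters' processing notes, STAR 2.7.10a, DESeq2 1.44.0 and the mm10 build were used; the counter, annotation release and strand setting are not given in the sources used here. Of 52336 identifiers, 52027 had a symbol in the reference tables used here, and 21590 were at 0 throughout. No column lacked a sample.

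Values were analysed as log2(value + 1) with limma 3.58.1 (R 4.3.3, trended prior variance, 8 residual degrees of freedom) in a model of 4 group means, for 14996 genes with a mean of at least 10, with two-sided tests and Benjamini-Hochberg adjustment over all of them at 0.05. Fold changes on this scale understate the change of low genes. Alternatives were a pseudocount of 0.5, no filter, library quality weights, the compared libraries alone, leaving out libraries, title prefix as a block, and edgeR 4.0.16 and DESeq2 1.42.0 on the recovered reads. DESeq2 gave no adjusted p for 4 of the 38 genes of the set, or 5 in NAC against saline after MI, so these could not be called. The procedure was tested on simulated data.

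The genes, role groups, pathway and cell marker lists were chosen with earlier results of these data known. All genes of the set are accounted for. Values in every library are given for those that passed in any comparison and for up to 2 of highest mean in each role group. Of each pathway list, up to 2 with the lowest p after saline and all that passed are named. A gene of the list on the CSF1 and CSF2 system is not reported here and is left out of its counts. Promoters are from RefSeq (GRCm38.p6); Csf1r, Spi1, Maf, Tyrobp, Cd14, C1qa, Msr1, Adgre1, Lyve1, Cd74, H2-Ab1 and Cd86 had no entry in the table used. The Clec7a, F13a1 and Marco promoters were chosen for printing after their values were seen. The floor of 3 reads covers counting error only.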

Additional observations from a re-analysis of the deposited data

How the results depend on the processing

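Directions held in every alternative for all 15 calls on single genes (6 after saline and 9 averaged over treatments); whether they passed did not. Members called in MI against sham after NAC, after saline and averaged numbered 23, 36 and 36 with library quality weights and 3, 23 and 17 with DESeq2, and 35 after saline with only the libraries compared, against 0, 6 and 9. Quality weights also called 4.08%, 10.1% and 14.4% of all genes higher, DESeq2 1.18%, 2.69% and 4.54%, and the compared libraries alone 3.09%. With 1 library left out, or the pair NAC MI 2 and NAC sham 2, the counts ran from 0 to 26 after NAC, from 1 to 36 after saline and from 5 to 37 averaged. They stayed at 0 for NAC against saline after MI, after sham surgery and for the interaction. Of all genes, NAC against saline after sham surgery called 0.413% higher without NAC sham 2 and 1.34% without the pair. Without NAC MI 3, 4 genes were called lower after MI and 4 in the interaction. Both libraries of that pair were picked by the levels of these genes, so counts without either are a description. Averaged over treatments, Cd14, Clec7a, F13a1, Itgax and Marco passed in all 12 fits without 1 library; Maf failed with edgeR, and Cd86 and Ly6c2 failed without the filter. No paired analysis was possible because the labels give no replicate numbers; with title prefix as a block, NAC against saline after MI called 0. Title prefix cannot be separated from surgery, 3 pooled libraries a group limit precision, and genes with few reads, such as Timd4, Folr2 and Cd163, are limited by depth.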
